A study of Mus musculus with 6 samples.

Results

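The 7 genes described here carry out antigen presentation by major histocompatibility complex (MHC) class II. They were chosen by name as Cd74, H2-Aa, H2-Ab1, H2-Eb1, H2-DMa, H2-DMb1 and Ciita, matched to Ensembl identifiers, and are 7 of the 52550 genes counted in mouse hippocampus by RNA sequencing. All 7 had enough counts to enter the test across genes. Hippocampal RNA of 3 control samples was compared with that of 3 samples labelled L-DL KD, to learn how hippocampal RNA differs after knockdown of L-DL, the long product of Hnrnpdl. Both groups were wild-type males of the C57BL/6 J strain, injected with adeno-associated virus (AAV) in the CA1 areas of both hippocampi at 8 weeks of age. Control mice received a control shRNA, and the others received L-DL shRNAs, 4 of them in tandem, each driven by the H1 promoter. The H1 promoter is not restricted to a cell type, whereas zsGreen, the marker of the virus, stood behind the neuronal CamkIIα promoter. The control virus was given at a higher titre, so the dose of virus and the shRNA cannot be told apart. The labels call the second group knockdown in one place and "-/-" in another, and the age at tissue collection is not given in the sources used here.

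Class II molecules show peptides from endosomes to CD4 T cells. An α and a β chain (H2-Aa and H2-Ab1 for I-A in the mouse, H2-Eb1 for the β chain of I-E) assemble on the invariant chain Cd74, which guides them to the endosome. There the H2-DM heterodimer exchanges the last remnant of Cd74 for a peptide. Ciita is the coactivator that sets transcription of nearly all of these genes, through promoter-bound RFX, CREB and NF-Y, and it is induced by interferon gamma. In the brain, class II is known from microglia, macrophages of the brain borders and dendritic cells, and not from neurons.

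Reads counted on genes ranged from 16052529 to 17913064 per library. Hnrnpdl, the targeted gene, had 2862, 3120 and 2689 counts in the controls and 3939, 2680 and 2904 counts in the L-DL KD-labelled libraries, with a log2 fold change of 0.03 (SE 0.12, edgeR adjusted p = 0.898). The count covers all its transcripts, so it cannot show the level of the long one and does not check the labels. The paper assessed L-DL protein in injected hippocampus by immunoblotting and reports its knockdown there. As the RNA counts do not show it, these 3 are called L-DL KD-labelled libraries here. Among 17621 tested genes, 2743 were higher and 2636 lower in these libraries at an adjusted p under 0.05. The 4 choroid plexus genes, Ttr, Folr1, Kl and Kcnj13, together reached 1639, 409 and 4473 CPM (counts per 1000000 counts, scaled between libraries) in control replicates 1 to 3 and 5006, 107 and 26.6 CPM in L-DL KD-labelled replicates 1 to 3. Libraries therefore differed widely in RNA of this tissue within both groups. All 12 microglial marker genes were higher in the L-DL KD-labelled libraries, and 6 of 10 markers of hippocampal neurons were lower. The labels do not say whether replicates are separate mice beyond their numbers, so p-values measure the spread between these 6 samples.

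Class II RNA was lower in the L-DL KD-labelled libraries. Of the 7 members, 6 fell at an adjusted p under 0.05, compared with 15.0% of all genes tested, and H2-DMb1 did not pass. Summed over the 7 genes, the level was 1904, 1488 and 1049 CPM in control replicates 1 to 3 and 382, 488 and 676 CPM in L-DL KD-labelled replicates 1 to 3. The mean was 1480 ± 428 CPM (SD, n = 3) against 515 ± 149 CPM (SD, n = 3), or 2.87 times lower, and the groups did not overlap. The median log2 fold change of the 7 members was −1.47, beside 0.01 for all genes tested. Since whole hippocampal tissue was sequenced, fewer class II-positive cells and less class II RNA per cell cannot be told apart.

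Cd74, the invariant chain, had the highest counts of the group (ENSMUSG00000024610, chromosome 18, 60803848 to 60812652, plus strand, GRCm38). It had 12007, 10043 and 6258 counts in control replicates 1 to 3 and 2410, 3161 and 3985 counts in L-DL KD-labelled replicates 1 to 3. The lowest control lay above the highest L-DL KD-labelled library. Scaled to CPM, its level fell from 576 ± 172 to 183 ± 52.6 (SD, n = 3), a log2 fold change of −1.66 (SE 0.26, 95% interval −2.26 to −1.06, edgeR adjusted p = 0.00271). Cd74 alone made up between 34.8% and 39.7% of the summed CPM of the 7 genes in each library.

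H2-Aa, the α chain of I-A, lies on the minus strand of chromosome 17 (ENSMUSG00000036594, 34282744 to 34287823). Its counts were 6159, 4861 and 3301 in the controls and 1219, 1598 and 2170 in the L-DL KD-labelled libraries. No library of one group reached the range of the other. Its log2 fold change was −1.61 (SE 0.27, edgeR adjusted p = 0.00359), and the mean level fell from 292 ± 85.1 to 95.4 ± 31.5 CPM (SD, n = 3).

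H2-Ab1, the β chain that pairs with H2-Aa, lies on the plus strand nearby (ENSMUSG00000073421, chromosome 17, 34257689 to 34269419). It had 6652, 5325 and 3397 counts in the controls and 1499, 1912 and 2477 counts in the L-DL KD-labelled libraries. The groups were again apart. The level fell from 313 ± 97.1 to 112 ± 32.8 CPM (SD, n = 3), with a log2 fold change of −1.48 (SE 0.26, edgeR adjusted p = 0.00472).

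H2-Eb1 encodes the β chain of I-E, whose α chain gene is not functional in C57BL/6 mice (ENSMUSG00000060586, chromosome 17, 34305867 to 34316674, plus strand). It was nevertheless among the abundant members, with 4375, 3739 and 2491 counts in the controls and 1027, 1304 and 1760 counts in the L-DL KD-labelled libraries. All 3 controls were above all 3 L-DL KD-labelled libraries. Its log2 fold change was −1.47 (SE 0.25, edgeR adjusted p = 0.00387), as the level fell from 216 ± 55.8 to 78.2 ± 24.6 CPM (SD, n = 3). The antisense gene Gm20513 overlaps H2-Eb1 and had 2, 3 and 0 counts in the controls and 0 in each L-DL KD-labelled library. Whether reads were counted by strand is not stated, so reads of both could be mixed.

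H2-DM, the peptide editor, is made of an α and a β chain. H2-DMa, the α chain (ENSMUSG00000037649, chromosome 17, 34119541 to 34139101, plus strand), had 922, 833 and 640 counts in the controls and 396, 412 and 507 counts in the L-DL KD-labelled libraries. These ranges did not overlap, and the level fell from 48.8 ± 8.09 to 25.0 ± 4.52 CPM (SD, n = 3), a log2 fold change of −0.96 (SE 0.16, edgeR adjusted p = 0.00348). The gene model of H2-DMa overlaps Brd2 on the other strand. H2-DMb1, the β chain (ENSMUSG00000079547, chromosome 17, 34153072 to 34160230, plus strand), had 412, 267 and 222 counts in the controls and 271, 201 and 290 counts in the L-DL KD-labelled libraries. Only control replicate 1 stood above the L-DL KD-labelled libraries, and the other values were mixed. The log2 fold change of H2-DMb1 was −0.34 with a 95% interval from −0.92 to 0.23 (edgeR adjusted p = 0.333), which includes no change and falls of nearly the size seen for H2-DMa. H2-DMb1 has a close copy, H2-DMb2, with which it can share reads. H2-DMb2 had 74, 76 and 45 counts against 45, 43 and 59, with a log2 fold change of −0.50 (edgeR adjusted p = 0.204).

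Ciita, the coactivator of the other members, had the fewest counts per length (ENSMUSG00000022504, chromosome 16, 10480059 to 10528418, plus strand). It had 359, 228 and 204 counts in the controls and 106, 123 and 149 counts in the L-DL KD-labelled libraries. Control replicate 1 was well above the other controls, and both of these still exceeded every L-DL KD-labelled library. The level fell from 16.2 ± 5.17 to 7.21 ± 1.54 CPM (SD, n = 3), with a log2 fold change of −1.17 (SE 0.25, edgeR adjusted p = 0.0101).

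**Figure D1:**
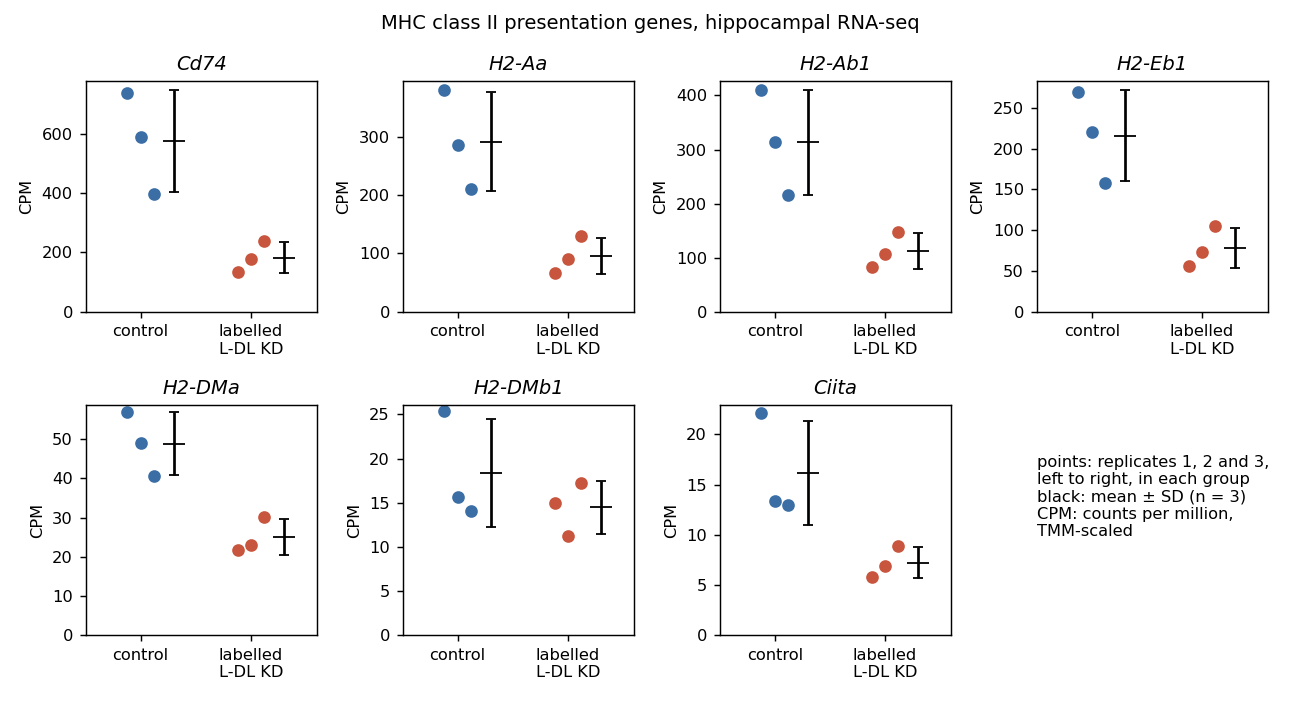
Each panel plots 1 gene in CPM (linear axis from 0), with the 3 control libraries in blue, the 3 L-DL KD-labelled libraries in red and the mean ± SD in black. The groups are apart in every panel except H2-DMb1, whose L-DL KD-labelled libraries lie between 11.3 and 17.3 CPM and whose controls lie between 14.1 and 25.4 CPM.

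All 3 L-DL KD-labelled libraries lay below all 3 controls in 6 of the 7 members, compared with 23.4% of all genes tested. Within the groups the members also followed each other. Control replicate 1 was the highest and control replicate 3 the lowest control in all 7 genes. L-DL KD-labelled replicate 3 was the highest of its group in all 7, and replicate 1 was the lowest in all but H2-DMb1. Control replicate 3 and L-DL KD-labelled replicate 1 were also the libraries with the most choroid plexus RNA in their groups, and the part of this tissue in the members' values was not tested. The same 6 members were called lower with log2 of the summed level of the 4 choroid plexus genes as a covariate, and without these libraries. Both fits were chosen after the values had been seen, and they do not measure the part of this tissue.

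The 4 most abundant members were set beside other abundant genes. Of 2448 tested genes with a mean of at least 100 CPM in the controls, 8 had a lower log2 fold change than Cd74. For H2-Aa, H2-Ab1 and H2-Eb1 the numbers were 11, 16 and 17 genes. Among all 17621 genes tested, 148 had a lower log2 fold change than Cd74, 161 than H2-Aa, 232 than H2-Ab1, 239 than H2-Eb1, 486 than Ciita, 798 than H2-DMa and 3862 than H2-DMb1.

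Levels of different genes were compared per length of the first transcript that GENCODE lists for each. In the controls Cd74 came first with 471 ± 140 CPM per kb (SD, n = 3), followed by H2-Aa with 259 ± 75.5, H2-Ab1 with 258 ± 80.1 and H2-Eb1 with 184 ± 47.7 CPM per kb. The ranges of neighbours among these overlapped, although Cd74 exceeded H2-Aa in each of the 3 controls. A wide gap separated the presenting chains from the editor and the coactivator. H2-DMa reached 29.4 ± 4.88, H2-DMb1 13.1 ± 4.35 and Ciita 2.69 ± 0.86 CPM per kb, with no overlap between neighbours. In the L-DL KD-labelled libraries the levels were 149 for Cd74, 92.8 for H2-Ab1, 84.5 for H2-Aa, 66.8 for H2-Eb1, 15.1 for H2-DMa, 10.3 for H2-DMb1 and 1.20 CPM per kb for Ciita. H2-Ab1 and H2-Aa thus changed places, with overlapping ranges. With the length of all exons of a gene in place of 1 transcript, H2-Aa came after H2-Eb1 in both groups, and H2-DMb1 before H2-DMa in the L-DL KD-labelled libraries.

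Because each library holds all genes, the ratio of counts of 1 gene to another does not depend on library size. Cd74 had 3.45, 2.54 and 2.02 reads per read of Csf1r, the receptor that microglia need to survive, in the controls and 0.268, 0.321 and 0.412 in the L-DL KD-labelled libraries. The groups did not overlap, and the log2 ratio was lower by 2.99, or 7.94 times. Csf1r itself rose by 1.34 on the log2 scale (SE 0.09, edgeR adjusted p = 0.000114), so this ratio holds both the fall of Cd74 and the rise of Csf1r. Cd74 had 0.653, 0.549 and 0.455 reads per read of B2m, the light chain of MHC class I, in the controls and 0.151, 0.145 and 0.174 in the L-DL KD-labelled libraries, a ratio 3.50 times lower. Against its own coactivator Ciita, the ratio of Cd74 was 33.4, 44.0 and 30.6 in the controls and 22.6, 25.6 and 26.7 in the L-DL KD-labelled libraries, 1.43 times lower. The ratio of H2-Aa to its partner H2-Ab1 moved from 0.926, 0.913 and 0.972 to 0.813, 0.836 and 0.876, 1.11 times lower. H2-DMa relative to Cd74 was higher in the L-DL KD-labelled libraries, by 0.69 on the log2 scale. In each of the 5 ratios the groups were apart, with p = 0.1 in a two-sided exact permutation test and 0.1 after Benjamini-Hochberg adjustment over the 5, which is the smallest p that 3 against 3 allows and cannot pass 0.05.

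**Figure D2:**
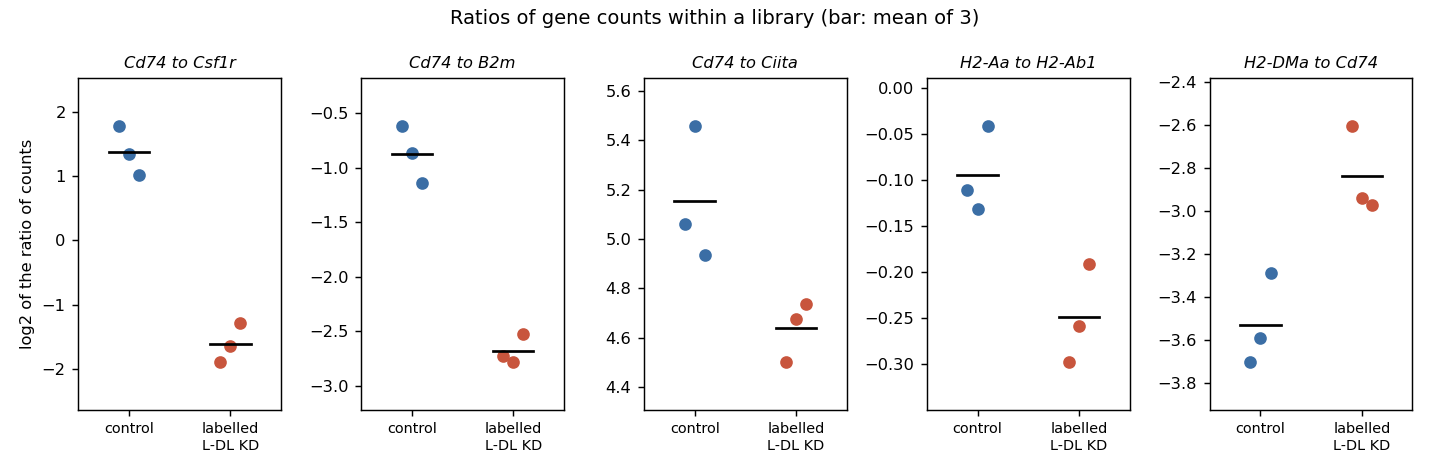
Each panel plots the log2 ratio of the counts of 2 genes within a library, with controls in blue, L-DL KD-labelled libraries in red and the mean of 3 as a bar (axes differ between panels). The ratio of Cd74 to Csf1r lies between 1.02 and 1.79 on the log2 scale in the controls and between −1.90 and −1.28 in the L-DL KD-labelled libraries, and the ratio of H2-Aa to H2-Ab1 moves by 0.15 only.

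Class II promoters share a module in which RFX binds the X box and NF-Y the Y box, a reversed CCAAT. RefSeq promoter windows of 300 bases (250 before to 50 after the annotated start, GRCm38.p6) matched 4 of the 7 members, H2-Aa, H2-Eb1, H2-DMa and H2-DMb1, and not Cd74, H2-Ab1 and Ciita. The letters TGATTGG were taken for the Y box and GNAAC for the start of the X box, on either strand, with GNAAC beginning 20 to 50 bases ahead of TGATTGG on the same strand. That distance was set after the sequences had been seen. TGATTGG occurred in 7.82% and GNAAC in 84.8% of 32851 windows, and both at this distance in 0.852%. Of 8 class II chain genes with a window, 6 held both: H2-Aa, H2-Eb1, H2-Oa, H2-DMb1, H2-Ob and H2-Eb2. The stretches are shown for 2 members that fell and for 2 related chains that did not pass the test, with GNAAC and TGATTGG in capitals, in the direction of transcription.
H2-Aa: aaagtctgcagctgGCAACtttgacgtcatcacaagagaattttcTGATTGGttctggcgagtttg
H2-Eb1: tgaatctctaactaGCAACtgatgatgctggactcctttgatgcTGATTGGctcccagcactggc
H2-Ob: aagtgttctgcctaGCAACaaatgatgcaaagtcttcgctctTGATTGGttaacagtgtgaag
H2-Eb2: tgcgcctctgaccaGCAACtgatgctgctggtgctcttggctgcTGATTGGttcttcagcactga

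The H2-Aa stretch is chr17:34287853-34287918 on the minus strand and the H2-Eb1 stretch chr17:34305762-34305826 on the plus strand. Those of H2-Ob and H2-Eb2 are chr17:34238804-34238866 and chr17:34325529-34325593, both on the plus strand. TGATTGG began 50 bases before the RefSeq start in H2-Aa, 61 in H2-Eb1, 59 in H2-Ob and 102 in H2-Eb2, and GNAAC began 31, 30, 28 and 30 bases ahead of it. H2-DMb1, which did not pass the test, held both at a distance of 31 bases. The windows of H2-DMa, which fell, hold neither the pair nor TGATTGG, and H2-DMb2 holds TGATTGG only, which says nothing of sequence outside these windows. Of the 6 genes with both, 3 fell (H2-Aa, H2-Eb1 and H2-Oa) and 3 did not pass (H2-DMb1, H2-Ob and H2-Eb2). Not passing does not show that a gene kept its level. H2-Eb2, with few counts, had a log2 fold change of −0.97 with its groups apart. The interval of H2-DMb1 ran from −0.92 to 0.23, and H2-Ob had a log2 fold change of 0.20. The distance was also set on these sequences, so whether the letters go with the fall was not tested.

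The other class II chains were far less abundant than the members. H2-Oa, the α chain of the H2-O inhibitor of H2-DM, had 133, 86 and 62 counts in the controls and 27, 41 and 57 counts in the L-DL KD-labelled libraries. Its log2 fold change was −1.26 (SE 0.37, edgeR adjusted p = 0.0349), and the call was lost without control replicate 1 or 2, without L-DL KD-labelled replicate 1 or 2, and with a replicate block. Its partner H2-Ob had 111, 64 and 69 counts against 96, 107 and 99, a log2 fold change of 0.20 (edgeR adjusted p = 0.582). H2-Eb2, a copy of the I-E β chain, had 17, 26 and 21 counts against 14, 10 and 11, and a log2 fold change of −0.97 (edgeR adjusted p = 0.065). H2-Ea-ps, the I-E α chain pseudogene of this strain, was at 0 in all 6 libraries, which allows a level of up to 0.191 CPM by 3 counts in the shallowest library.

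H2-Oa, the H2-A, H2-E and H2-DM genes and H2-Ob lie in 1 stretch of chromosome 17 (34092340 to 34341412, GRCm38), together with genes of other function. This interval was chosen after values had been seen. Of the 9 class II chains tested in it, 5 fell and none rose, beside 15.0% of all genes tested that were lower. All of these 5 but H2-Oa are members. None of the 6 other genes tested passed, beside 30.5% of all genes tested that passed in either direction. Among these other genes were Tap1, Tap2, Psmb8 and Psmb9, which serve peptide supply to MHC class I, and Brd2, a chromatin reader. Their log2 fold changes were 0.26 for Tap1, −0.21 for Tap2, 0.04 for Psmb8, −0.04 for Psmb9 and 0.19 for Brd2 (edgeR adjusted p = 0.074). Cd74 and Ciita, which fell with the chains, lie on other chromosomes.

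**Figure D3:**
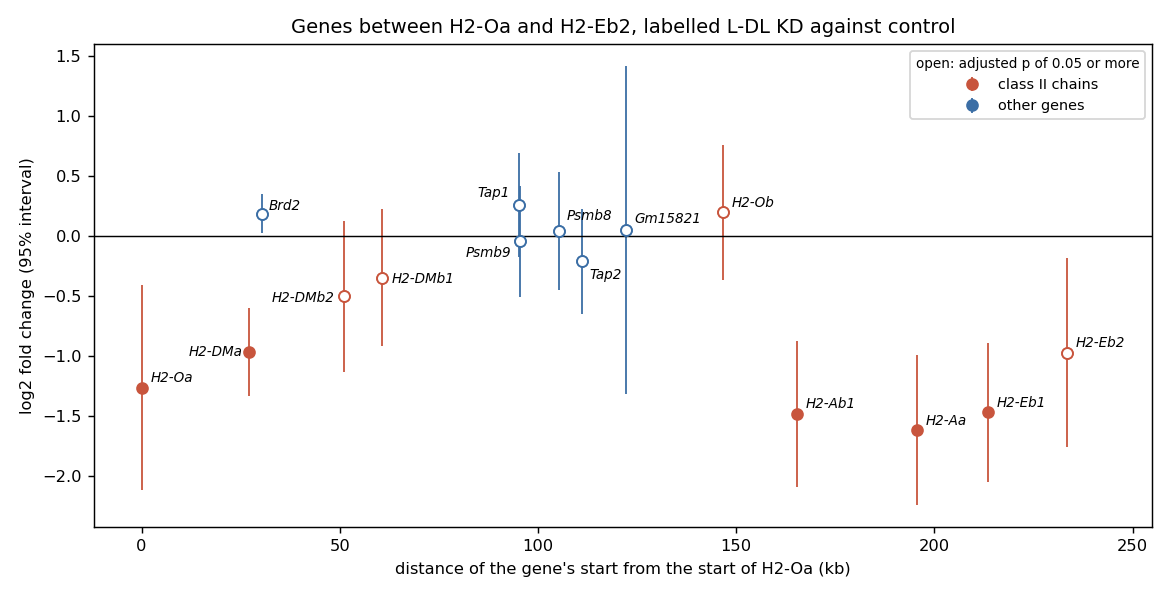
The log2 fold change of each tested gene (labelled L-DL KD against control, bars 95% interval) is plotted against the distance of its start from that of H2-Oa in kb, with class II chains in red, other genes in blue and open symbols for an adjusted p of 0.05 or more. The 5 filled symbols are H2-Oa, H2-DMa, H2-Ab1, H2-Aa and H2-Eb1, and the genes between H2-DMb1 and H2-Ob lie around 0.

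In the rest of the class II pathway, rises outnumbered falls. Of 33 tested genes in 5 lists, 13 were higher, 1 was lower (H2-Oa) and 19 did not pass. Of all genes tested, 15.6% were higher and 15.0% lower. The only fall, that of H2-Oa, was lost in the alternatives given above. Rfx5, a subunit of RFX, had 198, 210 and 199 counts in the controls and 379, 394 and 307 in the L-DL KD-labelled libraries, a log2 fold change of 0.72 (SE 0.12, edgeR adjusted p = 0.00327). Nfyc, a subunit of NF-Y, rose by 0.36 (edgeR adjusted p = 0.0148), a call lost without control replicate 1 or 3 and without the libraries richest in choroid plexus RNA, and the 5 other genes of the promoter complex did not pass.

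Of the 7 genes of endosomal processing, 6 rose. These proteases degrade antigen and the invariant chain. Lgmn, the asparaginyl endopeptidase, had 4127, 4201 and 3128 counts in the controls and 8062, 8299 and 8860 counts in the L-DL KD-labelled libraries, a log2 fold change of 1.04 (SE 0.11, edgeR adjusted p = 0.000532). The cathepsin genes Ctsl (1.06), Ctsd (0.75) and Ctse (1.28) had log2 fold changes of similar size, and the call of Ctse was lost in 6 of 14 alternatives. Ctss, the cathepsin known for the last cuts of the invariant chain, rose by 0.74 (edgeR adjusted p = 0.00434). Ctsb, another cathepsin gene, rose by 0.62 (SE 0.14, edgeR adjusted p = 0.0114), a call lost without control replicate 2 or 3. The summed level of the microglial markers was higher in the same group, at 1261 to 1555 CPM in the controls and 2786 to 3544 CPM in the L-DL KD-labelled libraries. Whether the rises of the protease genes are linked to it was not tested.

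Among 7 genes of surface turnover and co-stimulation, Cd86 (log2 fold change 1.14), Icosl (0.55) and March8 (0.36) rose, and the call of March8 was lost without control replicate 2. Cd86, the ligand of CD28 on T cells, had 246, 205 and 175 counts in the controls and 457, 533 and 497 in the L-DL KD-labelled libraries. The ubiquitin ligase March1, which removes class II from the surface, did not pass (0.19, edgeR adjusted p = 0.298). Cd274, the inhibitory ligand PD-L1, had 70.6, 42.4 and 47.6 CPM in the controls and 22.6, 36.3 and 39.3 CPM in the L-DL KD-labelled libraries. Its groups were apart, with a log2 fold change of −0.71 (SE 0.24, edgeR adjusted p = 0.059) that did not pass here but did with DESeq2, without the filter on low counts, with the choroid plexus covariate and without L-DL KD-labelled replicate 3.

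Interferon gamma is the best known inducer of Ciita. Its gene Ifng had 6, 13 and 5 counts in the controls and 0, 1 and 1 counts in the L-DL KD-labelled libraries, 24 reads against 2, too few for the filter on low counts. In a fit without that filter its edgeR adjusted p was 0.0308. Of 8 tested genes of its signalling, Ifngr1, a receptor chain, rose by 1.03 on the log2 scale (SE 0.11, edgeR adjusted p = 0.000547). Irf8, a factor of myeloid cells, rose by 1.01 (SE 0.18, edgeR adjusted p = 0.00425). The 6 others did not pass, among them Irf1 (−0.27, edgeR adjusted p = 0.256) and Socs1 (−0.43, edgeR adjusted p = 0.403).

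MHC class I genes did not show the fall. None of the 9 tested genes passed in edgeR, none had an unadjusted p under 0.05, and DESeq2 called none. B2m had 18388, 18282 and 13745 counts in the controls and 15922, 21779 and 22963 counts in the L-DL KD-labelled libraries. Its log2 fold change was 0.17 with a 95% interval from −0.21 to 0.55, which does not reach the interval of Cd74. The median over the 9 genes was 0.04. Nlrc5, the coactivator of class I that is the counterpart of Ciita, had a log2 fold change of −0.08 (95% interval −0.75 to 0.58, edgeR adjusted p = 0.856).

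**Figure D4:**
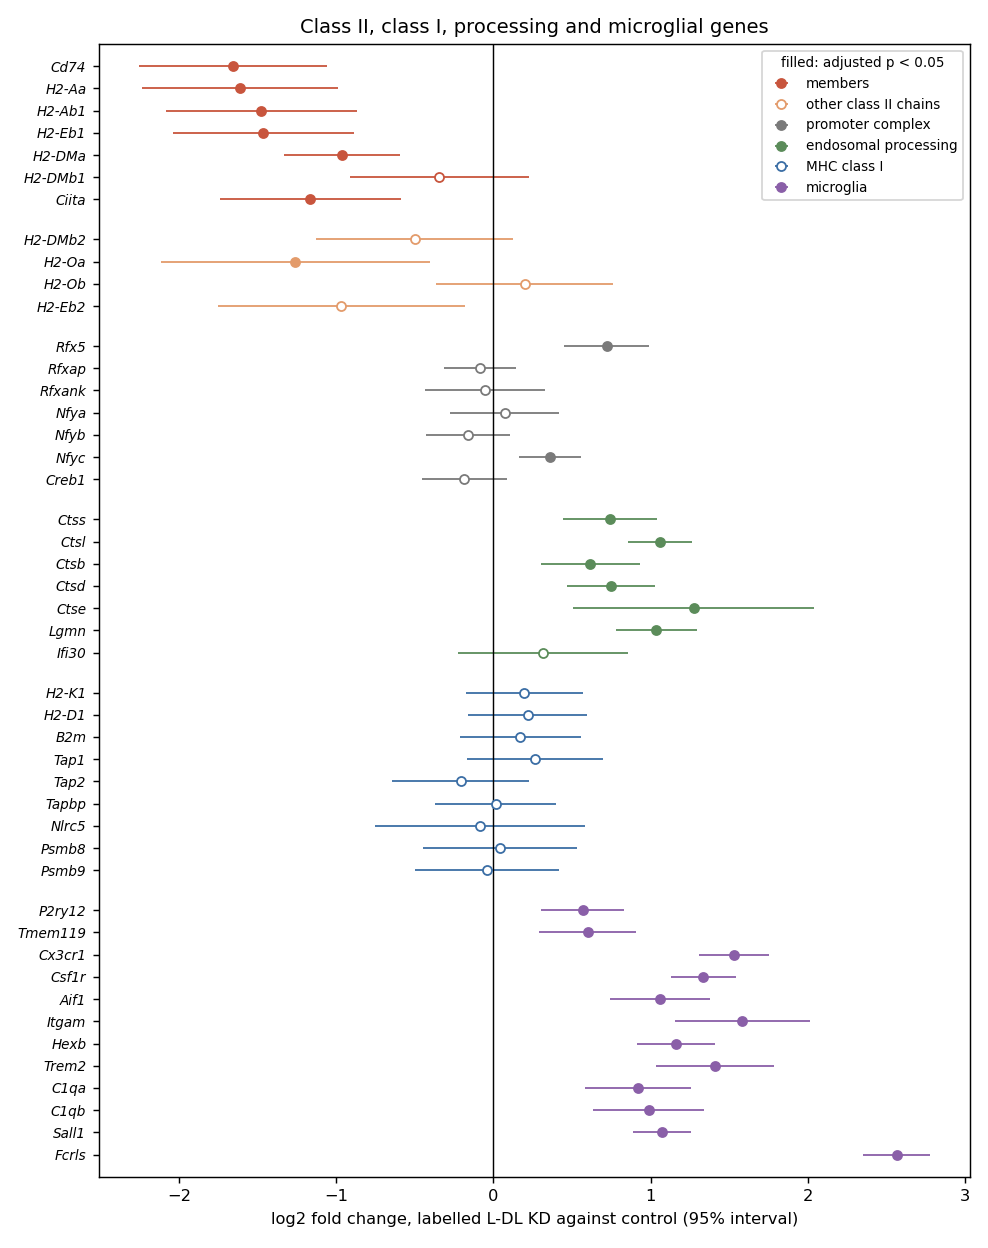
Points are log2 fold changes (labelled L-DL KD against control) with 95% intervals from edgeR for the 7 members and 5 comparison lists, filled where the adjusted p is under 0.05. Members lie left of 0, endosomal processing and microglial genes right of it, and the 9 MHC class I genes around it with open symbols.

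Markers of cells that can carry class II were set beside the members. All 12 microglial genes rose, with log2 fold changes of 0.57 for P2ry12, 0.60 for Tmem119 and 1.53 for Cx3cr1. Of 5 tested genes of border-associated macrophages 2 rose, Mrc1 by 1.43 (edgeR adjusted p = 0.0182) and Cd163 by 1.40 (edgeR adjusted p = 0.0417), and the summed level of the list overlapped between the groups at 22.8 to 34.0 against 33.9 to 86.2 CPM. Of 8 genes used for dendritic cells, Itgax, which microglia also express, rose by 1.22 and Batf3 by 0.95. Flt3, the receptor that dendritic cells depend on, had 232, 279 and 197 counts in the controls and 132, 151 and 156 counts in the L-DL KD-labelled libraries, and fell by 0.79 on the log2 scale (SE 0.16, edgeR adjusted p = 0.00758). The dendritic cell gene Zbtb46 did not pass (−0.06, 95% interval −0.51 to 0.39). Clec9a (0.69, edgeR adjusted p = 0.158), Cd209a (0.62, edgeR adjusted p = 0.495) and Xcr1 (0.29, edgeR adjusted p = 0.766) did not pass. Ccr7 (−0.27, edgeR adjusted p = 0.666) did not pass either. Xcr1 and Clec9a had at most 40 counts in any library, and Cd209a at most 17. The summed level of the list was 45.8 to 72.4 CPM in the controls and 75.3 to 104 CPM in the L-DL KD-labelled libraries, with Itgax the most abundant gene.

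T cells recognise class II and are a source of interferon gamma. All 9 of their marker genes had negative log2 fold changes, from −1.02 for Cd3d to −0.04 for Cd8a, and 1 passed, Trac (−0.86, edgeR adjusted p = 0.0151). Their summed level was 46.3 to 70.9 CPM in the controls and 26.4 to 46.9 CPM in the L-DL KD-labelled libraries, ranges that overlap slightly. The number of these genes called ranged from 0 to 7 over the alternatives. Of 9 genes of B and plasma cells 1 rose, Cd22, which microglia express too, and the summed level ran from 43.7 to 213 CPM against 136 to 357 CPM. Of 4 tested genes of monocytes and neutrophils none passed in edgeR, and none had an unadjusted p under 0.05. The part of each of these cell types in the fall of the class II genes was not tested.

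Across 16112 genes with a mean of at least 1 CPM, the genes most like the mean log2 CPM of the members over the 6 libraries were Ric3 (Pearson's r = 0.995), Gm14827 (0.994), Pitpna (0.993), Acod1 (0.993) and Zfp952 (0.991). The difference between the groups enters this likeness, and how much of it was not measured. The 6 points also share their libraries. Of these 5, Gm14827 had a log2 fold change of −0.80 (edgeR adjusted p = 0.00897). Acod1, which makes itaconate in activated macrophages, had one of −1.33 (edgeR adjusted p = 0.0187). Acod1 had 12.5, 8.65 and 6.54 CPM in the controls and 2.48, 3.25 and 5.30 CPM in the L-DL KD-labelled libraries. This is the same order of libraries as for Cd74, a likeness for which these genes were picked. Ric3 and Pitpna followed the same order with far smaller changes of −0.20 and −0.21, neither past the threshold. The members themselves had r between 0.987 and 0.998 with their own mean, except H2-DMb1 with 0.714.

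Splicing was read from the counts of reads across junctions that include or skip a segment. PSI is the share of inclusion after division by the effective lengths of both forms. Only 3 of the 7 members had a listed event, 4 events in all, and 2 could be tested. Among 18829 tested events 48, or 0.255%, passed an adjusted p of 0.05 in edgeR, and neither of these 2 did. The number called over all events was not stable, at 0 to 52 when a library was left out and 0 with limma. The splicing columns carry no replicate numbers, so libraries are given in the order of the table.

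The main event was the cassette exon of 192 nt in Cd74 (chromosome 18, 60811294 to 60811485, exon 7 of a GENCODE transcript of Cd74), which separates the p41 form, with its thyroglobulin domain, from the shorter p31. Its PSI was 0.195, 0.169 and 0.195 in the control libraries and 0.190, 0.185 and 0.170 in those labelled L-DL KD. The values of both groups were interleaved, with means of 0.186 ± 0.0149 and 0.182 ± 0.0103 (SD, n = 3). Between 1291 and 6812 junction reads per library stood behind them. The log2 odds of inclusion changed by −0.04 (SE 0.21, 95% interval −0.49 to 0.41, edgeR adjusted p = 0.965). The amount of Cd74 RNA therefore fell with no detectable change in the share of the exon, within that interval.

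**Figure D5:**
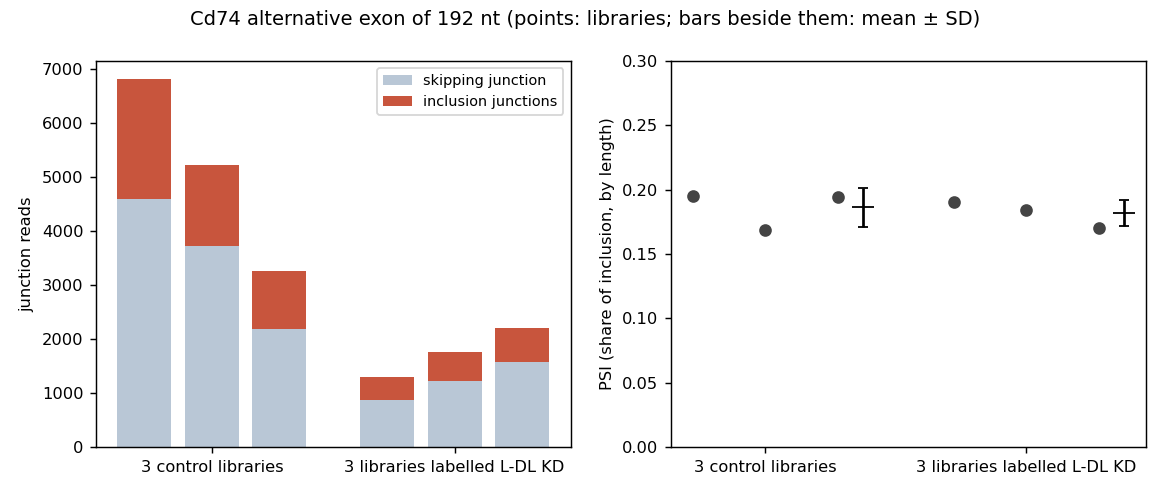
Left, junction reads that skip (grey) or include (red) the 192 nt exon of Cd74 in each library, and right, its PSI in each library with the mean ± SD (n = 3) beside the points. Junction reads are fewer in all 3 L-DL KD-labelled libraries, while PSI stays between 0.169 and 0.195 in all 6.

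In H2-Aa, skipping of the 249 nt exon 2 of its first GENCODE transcript (chromosome 17, 34284288 to 34284536) was seen in 2, 0 and 1 reads in the controls and 6, 0 and 0 reads in the L-DL KD-labelled libraries, of 914 to 4180 junction reads. All 6 reads came from 1 library, and the event did not pass (edgeR adjusted p = 0.527). For the 129 nt exon 5 of H2-DMa there was 1 skipping read in all 6 libraries. A 57 nt retained segment of Cd74 was skipped in 3 reads, all in the controls, of 702 to 4130 per library, so both were too rare to test.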

How the data were processed

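RNA of 6 hippocampal libraries was analysed, 3 control and 3 labelled L-DL KD, grouped by their labels. Unnormalized read counts for each Ensembl gene were deposited by the authors together with rMATS inclusion and skipping junction counts of 40961 splicing events. The submitters' processing notes name mm10, HISAT2 2.1.0, HTSeq 0.6.1 and Bowtie 1.1.2. The authors' own p-values, FDR and PSI differences were not used. The splicing columns name samples 1 and 2, and their groups follow the methods' definition of the PSI change.

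Genes that reached 10 counts in 3 or more libraries were tested with edgeR 4.0.16 (quasi-likelihood test, TMM scaling, R 4.3.3), and events averaging 20 junction counts or more in a library, and 1 or more of either form, were tested on those counts with an effect for each library. Adjustment was by Benjamini-Hochberg over all genes or events at 0.05. CPM are TMM-scaled. On simulated counts of 17299 genes, 61.5% of 200 genes changed by 1 on the log2 scale were recovered, with 14 false calls. Ratios used a pseudocount of 0.5 counts. Gene positions and transcript lengths are from GENCODE M21 (GRCm38).

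The members and gene lists were chosen with earlier results of these data known. Named were all members, up to 4 called genes of each pathway list, the first 3 markers of a cell type and the 5 genes most like the members. H2-Ob, H2-Eb2, H2-DMb2, H2-Ea-ps, Ifng, Irf1, Socs1, March1, Cd274, Nlrc5, Ctss, Ctsb, the genes of the chromosome 17 interval, Trac, Cd8a, Cd22, Batf3, Xcr1, Clec9a, Cd209a and Ccr7 were named after their values were seen. Alternatives were other filters, library-size scaling, DESeq2 1.42.0, limma 3.58.1 for events, a threshold of 0.01, leaving out each library and a replicate block.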

Additional observations from a re-analysis of the deposited data

How the results depend on the processing

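Each of the 7 members kept its direction and its side of the threshold in all 14 alternatives at an adjusted p under 0.05, with log2 fold changes from −1.97 to −1.44 for Cd74, −1.95 to −1.38 for H2-Aa, −1.78 to −1.24 for H2-Ab1, −1.78 to −1.27 for H2-Eb1, −1.12 to −0.84 for H2-DMa, −1.34 to −0.87 for Ciita and −0.53 to −0.04 for H2-DMb1, which passed in none. At a threshold of 0.01, 5 members fell, since Ciita lies just above it. The pathway genes that fell numbered 1, and 3 without a filter on low counts, 0 with the replicate block, 2 with DESeq2 and 0 to 2 when a library was left out, while those that rose numbered 13 and 10 to 13 when a library was left out. T cell genes that fell numbered 1, and 2 with the replicate block, 2 with DESeq2 and 0 to 2 when a library was left out. MHC class I genes that rose numbered 0, and 0 to 2 when a library was left out, the 2 being H2-D1 and B2m without replicate 1 labelled L-DL KD. Over all genes, 1676 to 3241 fell and 1770 to 3236 rose when a library was left out, and 1348 fell and 1398 rose at 0.01. Scaling by library size alone gave 3052 higher and 2392 lower genes. Of the 5 genes most like the members, 2 were among the 5 most like Cd74 alone. The causes of these changes were not tested, apart from the fewer samples or the stricter threshold.

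Chosen after seeing the data, the choroid plexus level as a covariate gave 4 pathway and 7 T cell genes lower, and leaving out control replicate 3 and replicate 1 labelled L-DL KD together gave 2 and 0. Samples with the same number did not deviate together (r = 0.05, 0.13 and −0.11 for numbers 1 to 3), so the numbers were not taken as pairs; with the replicate block 6 members, as without it, and 2324 of all genes fell. Low counts limit H2-Oa, H2-Eb2, H2-DMb2 and Ifng, among others, and the H2-Aa and H2-DMa exons rest on 9 and 1 skipping reads.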
